A study of Mus musculus with 12 samples.

Results

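The chaperonin containing TCP1 (CCT, also called TRiC) is the cytosolic folding machine of eukaryotic cells, and its mRNAs were followed here through oocyte growth and meiotic maturation in wild-type (WT) and Zar1/2-null mice. The members were chosen by name as the genes of the CCT subunits, and all 8 were found among the 23230 genes of the deposited table. They are Tcp1 (the alpha subunit), Cct2 (beta), Cct3 (gamma), Cct4 (delta), Cct5 (epsilon), Cct6a (zeta), Cct7 (eta) and Cct8 (theta).

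CCT is built from a pair of stacked rings, and every ring holds each of the 8 different subunits in a fixed place. Unfolded protein enters the central cavity, and the rings close over it as they bind and split ATP. Actin and tubulin depend on CCT for folding, as do the activators of the anaphase-promoting complex, CDC20 and CDH1, so the chaperonin stands upstream of the spindle and of the cell cycle proteins of meiosis. Prefoldin hands new actin and tubulin chains to CCT, phosducin-like proteins bind CCT as cofactors, and the tubulin folding cofactors take over the tubulin that it releases. An oocyte that has stopped transcription at the end of growth can change the level of these mRNAs only through their stability and processing.

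Growing oocytes, full-sized oocytes whose germinal vesicle (GV) was still intact, and ovulated oocytes collected as metaphase II (MII) were sequenced in both genotypes, with 2 libraries in each of the 6 groups and a pool of 10 oocytes in each library. The Zar1/2-null females carried CRISPR/Cas9 deletions within both Zar1 and Zar2 that every cell of the animal inherited, and the WT females carried neither deletion. All mice had a C57BL6/ICR hybrid background. By the labels the growing oocytes came from females 13.5 days old (the study's methods give a younger age), and the GV oocytes from females 21 days old that had received pregnant mare serum gonadotropin (PMSG) 44 h earlier. The MII oocytes came from superovulated females 16 h after human chorionic gonadotropin (hCG), with no age in the labels. For superovulation the study's methods give an age range that starts at 21 days, with PMSG 44 h before hCG. The MII groups are defined by this time of collection, and MII is used here as the label. Since the study describes ovulated Zar1/2-null oocytes that remained in meiosis I, genotype and meiotic stage cannot be told apart in these libraries. In a separate experiment the study held oocytes in meiosis I with nocodazole. It reported by RT-qPCR that the decay of selected mRNAs was unchanged there. Nothing in the labels says whether the libraries of a group came from different females, so the p-values measure only the spread between these libraries.

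Values are FPKM (fragments scaled to the length of the transcript and to the number of mapped fragments), a level per length of mRNA that allows genes to be compared with each other, multiplied by the authors with a factor from an ERCC spike-in of synthetic RNA. The factors ranged from 0.533 to 1 in the growing and GV libraries and from 0.225 to 0.283 in the MII libraries. A level is thus meant as an amount of polyadenylated mRNA per oocyte. For selected mRNAs the study reported that poly(A) tails lengthened in maturing WT oocytes but not when the genes were deleted. The part of tail length in the falls from GV to MII and in the genotype differences at MII was not tested. The table holds no read counts per gene, so the counting error of each value is unknown. The study does report the total reads of each library. Zar1l, the symbol that lists Zar2, was at 639 and 644 FPKM in WT growing oocytes and at 17.5 and 13.2 FPKM in Zar1/2-null growing oocytes, and it was lower in Zar1/2-null libraries at every stage. Zar1 mRNA was lower in Zar1/2-null growing and GV oocytes but higher at MII (72.4 to 83.6 FPKM in WT and 190 to 194 FPKM in Zar1/2-null oocytes), and since the mutant allele has a short deletion, the mRNA can still be counted. All 8 oocyte markers examined were present in every group, and those of granulosa and cumulus cells summed to between 4.19 and 26.2 FPKM per library, with Ptx3 at 0 in every group. In growing oocytes the granulosa sum was 22.6 to 26.2 FPKM for the WT libraries, against 5.91 to 10.7 FPKM when the genes were deleted. Its largest part was Cyp19a1, with means of 17.9 FPKM (WT) and 5.13 FPKM (Zar1/2-null). At MII the means of Cyp19a1 were still 3.93 FPKM (WT) and 6.44 FPKM (Zar1/2-null). Of the 4 granulosa and cumulus genes tested, 3 (Inha, Cyp19a1 and Kitl) were lower in Zar1/2-null growing oocytes by the limma test below and 0 higher. This stood beside 24.4% and 10.6% of all genes. There Inha averaged 2.75 FPKM (WT) and 1.68 FPKM (Zar1/2-null), and Kitl 2.44 and 0.461 FPKM. Amh and Ptx3 were listed at 0 in growing oocytes of both genotypes. The part of this sum in the results was not tested, nor was carry-over of granulosa cells. The 4 immune markers summed to at most 0.217 FPKM. In pools of oocytes, fewer intact oocytes and less RNA per oocyte cannot be told apart.

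The subunit mRNAs were far from equal in level. Cct5 was the most abundant in all 8 growing and GV libraries and Cct6a the least abundant in all 12 libraries. In WT growing oocytes the levels were 398 and 419 FPKM for Cct5, 215 and 254 FPKM for Cct3, 215 and 200.1 FPKM for Cct8, 165 and 171 FPKM for Cct2, 135 and 136 FPKM for Tcp1, 45.4 and 50.9 FPKM for Cct4, 41.3 and 51.9 FPKM for Cct7 and 11.2 and 9.51 FPKM for Cct6a. Of the neighbouring pairs in this order 5 were separated in both libraries, while Cct3 overlapped Cct8 and Cct4 overlapped Cct7. The most abundant subunit mRNA was 35.5 and 44.0 times the least abundant in the WT growing libraries, and 10.3 and 8.59 times in the Zar1/2-null growing libraries. In WT GV oocytes, where the order was Cct5, Cct3, Cct8, Cct2, Tcp1, Cct7, Cct4 and Cct6a, the same ratio was 126 and 124, and again Cct3 and Cct8 overlapped. FPKM divides by the length of the whole transcript. The coding sequences of the members are between 1599 and 1671 bases long. Their annotated 3′ UTRs differ more, from 128 bases in Cct5 to 663 bases in Cct8, with none annotated for Cct6a. The part of annotated length in these ratios was not tested.

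**Figure D1:**
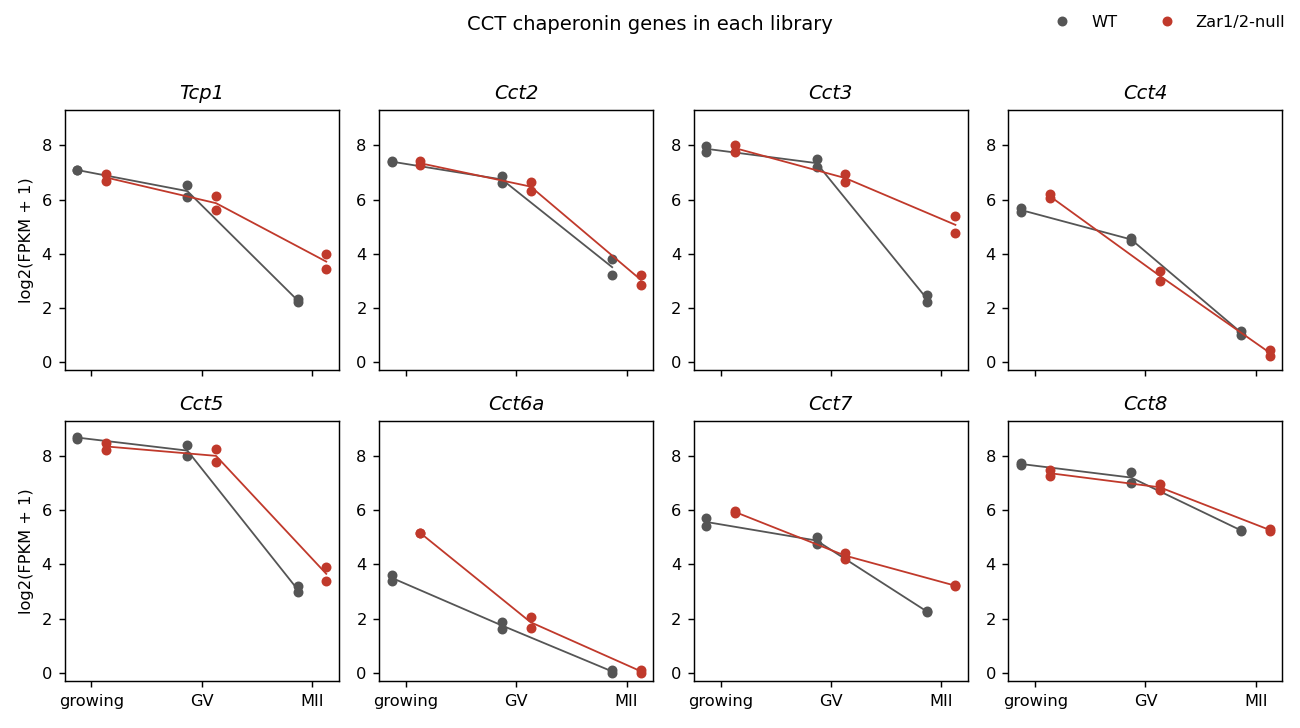
Level of each CCT subunit mRNA in each of the 12 libraries, as log2(FPKM + 1) on the vertical axis against stage on the horizontal axis, with WT in grey and Zar1/2-null in red. Each point is a library of 10 oocytes and lines join group means. Every subunit is lowest at MII, and the genotypes separate most for Cct3 and Tcp1 at MII and for Cct6a in growing oocytes.

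The genes lie on 8 different chromosomes. In the mm9 build used by the authors, Tcp1 spans chr17:13108567-13117933 (plus strand), Cct2 chr10:116488054-116500870 (minus), Cct3 chr3:88101038-88125689 (plus), Cct4 chr11:22890519-22903780 (plus), Cct5 chr15:31520555-31531602 (minus), Cct6a chr5:130293315-130321696 (plus), Cct7 chr6:85401499-85418471 (plus) and Cct8 chr16:87483570-87496114 (minus). Near-identical copies bear on some of the values, because only uniquely mapped reads were kept. Of the windows of 50 bases (the length of the trimmed reads) along the coding sequence, the share that matched another locus of mm9 with at most 2 differences was 42.0% in Cct3 (3 loci), 29.7% in Cct7 (5 loci), 15.2% in Cct4 (1 locus) and 6.10% in Tcp1 (2 loci), and 0% in Cct2, Cct5, Cct6a and Cct8. Windows identical to another locus made up 2.58% in Cct3, 2.02% in Cct7, 1.02% in Cct4 and 0.370% in Tcp1. The levels of those 4 genes are therefore uncertain to that extent. They are also the members that differed between genotypes at MII by the limma test below (Cct3, Tcp1 and Cct7 higher, Cct4 lower). The part of reads from the copies in these differences was not tested.

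The 3′ ends of the mRNAs are shown because the cytoplasmic polyadenylation element (CPE), a U-rich motif near the poly(A) signal, and the signal itself govern poly(A) tail length and translation in maturing oocytes. The stretches are mm9 sequence from the annotated 3′ UTR (an exonic region), written as DNA on the sense strand, with the letters of the poly(A) signal (AATAAA or ATTAAA) or of the CPE (TTTTAT or TTTTAAT) in capitals.
Tcp1 poly(A) signal, chr17:13117897-13117926: ctctaactcagaAATAAAtctgcctgcctt
Tcp1 CPE letters, chr17:13117729-13117758: gtgaactgactgTTTTATatgtctccccgc
Cct2 poly(A) signal, chr10:116488063-116488092: actgtgtattaaAATAAAaatccagttact
Cct3 poly(A) signal, chr3:88125658-88125687: ttgcttccaatgATTAAAtctaagtcattt
Cct5 poly(A) signal, chr15:31520572-31520601: tgtagatgctggAATAAAagcagctgtctg
Cct8 poly(A) signal, chr16:87483582-87483611: tgtatttaaataAATAAAcatgattttttt
Cct8 CPE letters, chr16:87484163-87484192: acttgcccagtgTTTTATttttcttatttg

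The annotated 3′ UTRs of the members were short. Their lengths were 591 bases in Tcp1, 248 in Cct2, 219 in Cct3, 629 in Cct4, 128 in Cct5, 200 in Cct7 and 663 in Cct8, beside a median of 826 bases over 10419 tested genes, and no 3′ UTR was annotated for the Cct6a transcript used. CPE letters were found in 2 of these 7 members, in Tcp1 starting 193 bases and in Cct8 starting 611 bases from the end. Such letters were found in 57.3% of all 10419 genes and in 30.9% of the 4704 genes with a 3′ UTR of at most 700 bases. The poly(A) signal letters lay in the last 50 bases of 5 of 7 members and of 76.9% of all genes, and not in those of Cct4 and Cct7.

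Promoter windows were available in RefSeq (GRCm38.p6) for 7 of 8 members, and those of Cct3 and Cct6a are shown because the results turn most on these 2 genes. The windows run from 250 bases before to 50 bases after the annotated start, and the capitals mark CCAAT or its reverse complement ATTGG.
Cct3 promoter, chr3:88296885-88297184 (GRCm38.p6, plus strand): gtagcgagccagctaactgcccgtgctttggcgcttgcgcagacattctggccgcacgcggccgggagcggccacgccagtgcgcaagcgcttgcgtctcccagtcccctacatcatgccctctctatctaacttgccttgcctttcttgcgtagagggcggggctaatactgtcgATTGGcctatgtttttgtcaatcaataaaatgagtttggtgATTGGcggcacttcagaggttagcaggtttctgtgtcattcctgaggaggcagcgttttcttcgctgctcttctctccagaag
Cct6a promoter, chr5:129787106-129787405 (GRCm38.p6, plus strand): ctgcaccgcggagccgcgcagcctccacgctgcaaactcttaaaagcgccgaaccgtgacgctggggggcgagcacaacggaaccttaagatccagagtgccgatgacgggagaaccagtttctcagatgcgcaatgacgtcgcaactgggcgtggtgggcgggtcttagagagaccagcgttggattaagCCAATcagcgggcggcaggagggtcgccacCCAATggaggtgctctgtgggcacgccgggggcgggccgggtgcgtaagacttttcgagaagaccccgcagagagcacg

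CCAAT letters on either strand occurred in windows of 4 members (Tcp1, Cct3, Cct6a and Cct7), that is in 4 of their 9 windows, and in 37.4% of all 32851 promoter windows. The letters GAANNTTC, a core of the heat shock element that reads the same on both strands, occurred in 1 of the 9 windows, that of Cct2, and in 7.86% of all windows.

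The first question was whether loss of ZAR1 and ZAR2 changed the chaperonin mRNAs while oocytes grew. In growing oocytes Cct6a rose 3.34-fold and Cct4 1.44-fold, and the other 6 members did not pass the test (limma on log2(FPKM + 1) over the 12 libraries, Benjamini-Hochberg adjustment over 11502 genes, threshold 0.05). Cct6a, whose product is among the subunits that bind ATP weakly, was at 11.2 and 9.51 FPKM in WT and at 34.4 and 34.8 FPKM in Zar1/2-null growing oocytes. The groups were far apart, with a log2 fold change of 1.65 ± 0.16 (SE) and an adjusted p of 4.06e-05 in limma. Cct4, a subunit of the side of the ring that binds ATP strongly, was at 45.4 and 50.9 FPKM in WT and at 73.1 and 65.4 FPKM in Zar1/2-null oocytes. Its libraries did not overlap either, at a log2 fold change of 0.52 ± 0.16 and an adjusted p of 0.0276 in limma, but leaving out any of the 4 growing libraries put the limma adjusted p above the threshold, at 0.0577 to 0.157, as did a pseudocount of 0.1 FPKM (0.114).

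Cct7 was at 41.3 and 51.9 FPKM in WT and 61.0 and 59.2 FPKM in Zar1/2-null growing oocytes, which did not overlap but missed the threshold (log2 fold change 0.37 ± 0.16, adjusted p = 0.0901 in limma). It passed without the ERCC factors (0.65, adjusted p = 0.00641 in limma) and when each library was instead divided by its median (0.55, adjusted p = 0.0209 in limma). Both Zar1/2-null values lay below both WT values, without passing the test, for Tcp1 (135 and 136 FPKM against 122 and 102 FPKM, adjusted p = 0.375 in limma), Cct5 (398 and 419 FPKM against 354 and 299 FPKM, 0.284) and Cct8 (215 and 200.1 FPKM against 176 and 153 FPKM, 0.135). The log2 fold changes of Tcp1, Cct5 and Cct8 were 0.011, -0.041 and -0.053 without the ERCC factors. They were -0.096, -0.15 and -0.16 with median scaling. Cct2 (165 and 171 FPKM in WT against 169 and 154 FPKM) and Cct3 (215 and 254 FPKM in WT against 260.1 and 217 FPKM) overlapped between genotypes.

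In growing oocytes 2 of 8 members were thus called higher, where 10.6% of all tested genes were, and 0 of 8 lower, where 24.4% were. At an unadjusted p under 0.05 in limma the counts were 3 (with Cct7) and 0. By a rule of at least 3-fold between group means floored at 1 FPKM, Cct6a alone passed as higher (1 of 8 members, 0.982% of all genes) and 0 of 8 as lower (3.54%). The median log2 fold change was -0.017 over the members and -0.16 over all genes. Among all genes called, 30.4% were higher with the deposited scaling, 54.8% without the ERCC factors and 44.0% with median scaling.

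In GV oocytes Cct4 fell 2.70-fold and Cct7 1.50-fold, and no member rose. Cct4 was at 23.1 and 21.2 FPKM in WT and at 7.02 and 9.35 FPKM in Zar1/2-null GV oocytes. Its libraries stood well apart, at a log2 fold change of -1.34 ± 0.16 and an adjusted p of 0.000121 in limma. Cct7 was at 31.1 and 25.9 FPKM in WT and at 17.5 and 20.5 FPKM in Zar1/2-null oocytes, with no overlap, a log2 fold change of -0.56 ± 0.16 and an adjusted p of 0.015 in limma. The difference in Cct7 hung on the scaling, being -0.12 (adjusted p = 0.598 in limma) without the ERCC factors and 0.013 (0.965) with median scaling, and it missed the threshold in a fit of the GV libraries alone (0.0827). It also missed the threshold without replicate 1 of the WT or of the Zar1/2-null GV group (adjusted p = 0.110 and 0.0802 in limma).

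Among the other members at the GV stage, Cct3 was at 179 and 146 FPKM in WT and 98.4 and 123 FPKM in Zar1/2-null oocytes, and Cct8 at 167 and 128 FPKM and at 106 and 123 FPKM. Both were lower in each Zar1/2-null library but missed the threshold (adjusted p = 0.0662 for Cct3 and 0.0985 for Cct8 in limma). Their log2 fold changes were -0.10 and 0.091 without the ERCC factors and 0.038 and 0.23 with median scaling. Cct3 was called lower when either Zar1/2-null MII library was left out of the fit (0.0377 and 0.0378), and Cct8 without WT GV replicate 2 (0.0309). Tcp1 (91.3 and 67.5 FPKM in WT against 48.2 and 68.4 FPKM), Cct2 (117 and 96.0 FPKM, 78.5 and 99.3 FPKM) and Cct5 (336 and 254 FPKM, 216 and 302 FPKM) overlapped between genotypes. Cct6a, which was raised in growing oocytes, was at 2.67 and 2.06 FPKM in WT and 2.15 and 3.21 FPKM in Zar1/2-null GV oocytes, also with overlap (log2 fold change 0.12 ± 0.16, adjusted p = 0.56 in limma).

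At the GV stage 2 of 8 members were called lower, where 40.6% of all genes were, and 0 of 8 higher, where 2.83% were. At an unadjusted p under 0.05 in limma the counts were 3 (with Cct3) and 0. The 3-fold rule named 0 of 8 members as higher (0.461% of all genes) and 0 of 8 as lower (4.2%), or Cct4 as lower without Zar1/2-null GV replicate 2. The members' median log2 fold change was -0.40 and that of all genes -0.38, so as a set they lay near the median gene. Of all genes called, 6.51% were higher with the deposited scaling, 34.7% without the ERCC factors and 50% with median scaling.

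At MII the subunits moved apart. Cct3 was 8.12-fold, Tcp1 3.19-fold and Cct7 2.17-fold higher when the genes were deleted, and Cct4 was 4.15-fold lower. With the deposited scaling Cct8 was at nearly the same level. Cct3, a subunit known for its contacts with tubulin, was at 3.70 and 4.52 FPKM in WT and at 40.7 and 26.0 FPKM in Zar1/2-null MII oocytes. The lowest Zar1/2-null library was thus several times the highest WT library (log2 fold change 2.72 ± 0.22, adjusted p = 2.67e-06 in limma). Tcp1, the founding subunit of the family, was at 3.70 and 4.04 FPKM in WT and at 14.8 and 9.89 FPKM in Zar1/2-null oocytes (log2 fold change 1.43 ± 0.23, adjusted p = 0.000509 in limma). Cct7 was at 3.77 and 3.84 FPKM in WT and at 8.17 and 8.36 FPKM in Zar1/2-null oocytes (log2 fold change 0.95 ± 0.16, adjusted p = 0.000697 in limma).

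Cct4 went the other way. It was at 1.23 and 1.02 FPKM in WT and at 0.188 and 0.355 FPKM in Zar1/2-null MII oocytes, with no overlap, but all 4 values lay near or under 1 FPKM, and the log2 fold change of -0.74 ± 0.16 (adjusted p = 0.00398 in limma) is made smaller by the added 1 FPKM. The calls of Cct3, Tcp1, Cct7 and Cct4 at MII stood under every alternative tried, each left-out library included. Cct5 was at 6.81 and 8.09 FPKM in WT and at 13.9 and 9.57 FPKM in Zar1/2-null oocytes, which did not overlap but missed the threshold (log2 fold change 0.58 ± 0.22, adjusted p = 0.0745 in limma). It was called higher without Zar1/2-null MII replicate 2 (adjusted p = 0.0370 in limma) and with a pseudocount of 0.1 FPKM (0.0432).

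Cct8 was at 36.6 and 37.4 FPKM in WT and at 38.6 and 36.4 FPKM in Zar1/2-null MII oocytes, and its log2 fold change was 0.02 ± 0.17. Cct2 was at 8.28 and 12.9 FPKM in WT and at 8.29 and 6.29 FPKM in Zar1/2-null oocytes, which overlapped by a small margin (log2 fold change -0.47 ± 0.22, adjusted p = 0.128 in limma). It was called lower without the ERCC factors (-0.74, adjusted p = 0.00534 in limma) and with median scaling (-0.87, adjusted p = 0.00138 in limma), and without WT MII replicate 1 (adjusted p = 0.0349 in limma). Cct6a was near the end of detection, at 0.0710 FPKM and listed at 0 in WT, and listed at 0 and at 0.0797 FPKM in Zar1/2-null oocytes, so no fold is given.

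At MII 3 of 8 members were called higher, where 21.5% of all genes were, and 1 of 8 lower, where 10.3% were. The 3-fold rule named Cct3 and Tcp1 as higher (2 of 8 members, 7.49% of all genes) and 0 of 8 as lower (1.32%), and without Zar1/2-null MII replicate 1 Cct3 alone remained. Cct4 missed the 3-fold rule because its Zar1/2-null mean lay under the floor of 1 FPKM. The median log2 fold change was 0.30 over the members and 0.060 over all genes. Of the 8 oocyte markers, 6 were also higher and 1 lower at MII, their sum being 1032 to 1139 FPKM in WT and 3449 to 3739 FPKM in Zar1/2-null libraries, and the part of this in the members' values was not tested. Higher genes made up 67.6% of all calls with the deposited scaling, 51.2% without the ERCC factors and 44.4% with median scaling.

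**Figure D2:**
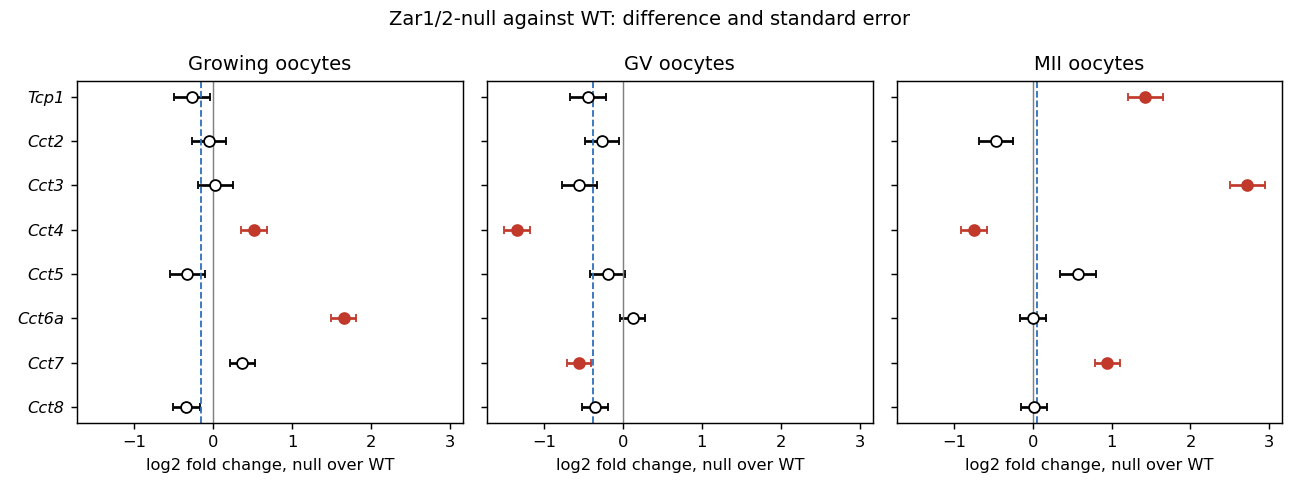
Log2 fold change of Zar1/2-null over WT on the log2(FPKM + 1) scale (horizontal axis) for each subunit (vertical axis) in growing, GV and MII oocytes, with bars of 1 standard error from limma over 12 libraries. Filled red points passed an adjusted p of 0.05 and the dashed blue line is the median of all 11502 genes. Cct6a is the farthest point of the growing panel, Cct4 lies right of 0 in growing oocytes and left of it at GV and MII, and Cct3 at MII is the farthest point.

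The second question was how the mRNAs changed within each genotype. From growing to GV oocytes 6 of 8 members fell in WT, where 28.7% of all genes were called lower. In WT Cct6a fell 4.38-fold (log2 fold change -1.76, adjusted p = 0.000178 in limma), Cct4 2.18-fold (-1.09, 0.0015), Tcp1 1.71-fold (-0.78, 0.0252), Cct7 1.63-fold (-0.69, 0.00984), Cct2 1.58-fold (-0.66, 0.0391) and Cct8 1.41-fold (-0.50, 0.0401). Cct3 and Cct5 missed the threshold, at ratios of growing to GV of 1.44 and 1.38. The least abundant member, Cct6a, thus had the greatest ratio. Without the ERCC factors Cct4 and Cct6a were still called lower and with median scaling Cct6a alone, Cct2 and Cct8 were lost with a pseudocount of 0.1 FPKM (limma adjusted p = 0.0589 and 0.0558), and Cct2 and Tcp1 with no filter on low values (0.0683 and 0.0508). The WT count depended on single libraries, being 3 without WT growing replicate 1 and 2 without WT growing replicate 2 or without WT GV replicate 2.

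In Zar1/2-null oocytes 7 of 8 members fell from growing to GV, where 55.9% of all genes were called lower. Cct6a fell 12.9-fold (log2 fold change -3.29, adjusted p = 8.03e-07 in limma), Cct4 8.46-fold (-2.94, 9.24e-07) and Cct7 3.16-fold (-1.61, 1.63e-05). Cct3 (2.16-fold), Tcp1 (1.93-fold), Cct2 (1.82-fold) and Cct8 (1.44-fold) fell less, and Cct5 missed the threshold (ratio 1.26, adjusted p = 0.198 in limma). No member was called higher by limma in either genotype, also not at an unadjusted p under 0.05 (0 of 8, beside 2.77% of all genes called higher in WT and 4.76% in Zar1/2-null oocytes). The median log2 fold change was -0.67 over the members and -0.29 over all genes in WT, and -1.03 and -0.50 in Zar1/2-null oocytes.

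The change during growth was compared between genotypes as an interaction. It was more negative in Zar1/2-null oocytes for 3 of 8 members, where 11.3% of all genes were called so, and more positive for 0 of 8 (also at an unadjusted p under 0.05 in limma), where 2.58% were. The log2 differences were -1.86 ± 0.23 for Cct4 (adjusted p = 0.00105 in limma), -1.53 ± 0.23 for Cct6a (0.00306) and -0.93 ± 0.22 for Cct7 (0.0225). These are the 3 members with the lowest levels in growing and GV oocytes. For the other 5 the differences lay between -0.58 (Cct3, adjusted p = 0.251 in limma) and 0.13 (Cct5, 0.824). The call of Cct7 was lost without WT growing replicate 1, Zar1/2-null growing replicate 2, WT GV replicate 1 or Zar1/2-null GV replicate 1 (limma adjusted p from 0.0514 to 0.0765). Cct7 was also lost in a fit of only the 4 groups compared (0.0677), and Cct6a, at 2.06 to 3.21 FPKM in the GV libraries, with a pseudocount of 0.1 FPKM (0.0610). With median scaling Cct4 alone passed, Cct6a being at an adjusted p of 0.112 and Cct7 at 0.196 in limma. Over all genes the median difference was -0.23, beside -0.39 over the members.

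These growth contrasts also moved with the scaling over the whole table. Of all genes called, 8.80% were higher at GV in WT with the deposited scaling, 53.1% without the ERCC factors and 42.7% with median scaling. In Zar1/2-null oocytes these shares were 7.85%, 40.1% and 58.1%, and for the interaction 18.6%, 37.3% and 62.4%. Without the factors the log2 change during growth for Cct6a was -1.48 (WT) and -2.92 (Zar1/2-null), and -0.71 (limma adjusted p = 0.0468) and -2.46 for Cct4, respectively, beside 0.021 and -0.078 for the median gene. With median scaling the change of Cct4 in WT missed the threshold (-0.75, limma adjusted p = 0.0816).

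From GV to MII, when no new mRNA is made, 8 of 8 members fell in WT oocytes, where 93.4% of all tested genes were called lower and 0.104% higher. The size of the fall is what differed between them. Cct5 fell 39.6-fold, Cct3 39.5-fold, Tcp1 20.5-fold, Cct4 19.6-fold, Cct2 10.1-fold, Cct7 7.50-fold and Cct8 3.99-fold. The log2 fold changes ran from -5.12 (Cct5, adjusted p = 2.21e-09 in limma) to -1.69 (Cct6a, 1.49e-06), that of Cct6a being held small by its low level. For the 4914 genes with at least 10 FPKM in WT GV oocytes the median fall was 5.33-fold, so of the 7 members at that level 6 lay above the median and Cct8 below it. Cct5, the most abundant subunit mRNA at GV, was left at 2.53% of its GV level, Cct3 also at 2.53%, and Cct8 at 25.1%.

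The factors weigh most here. Without them the ratio of GV to MII in WT was 11.7 for Cct3, 11.6 for Cct5, 6.02 for Tcp1, 5.82 for Cct4, 2.97 for Cct2, 2.21 for Cct7 and 1.17 for Cct8. The order of the members was thus nearly the same, and Cct8 lost its call (limma adjusted p = 0.0927), which left 7 of 8 members lower. With median scaling 6 of 8 were lower, Cct7 missed the threshold (log2 fold change -0.19, adjusted p = 0.256 in limma) and Cct8 was higher at MII (0.72, 0.00102). Genes higher at MII made up 0.112% of all those called in WT with the deposited scaling, 29.3% without the ERCC factors and 56.7% with median scaling.

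In Zar1/2-null oocytes 8 of 8 members also fell from GV to MII, where 68.7% of all genes were called lower, and 0 of 8 rose, where 0.209% did. Cct4 fell 30.1-fold, Cct5 22.0-fold, Cct2 12.2-fold, Tcp1 4.72-fold, Cct3 3.32-fold, Cct8 3.05-fold and Cct7 2.30-fold, beside a median fall of 2.78-fold over the 4011 genes with at least 10 FPKM in Zar1/2-null GV oocytes (a level that Cct4 and Cct6a did not reach). Cct3 was left at 30.1% of its GV level and Cct7 at 43.4%. Higher genes made up 0.303% of those called with the deposited scaling, 32.6% without the ERCC factors and 58.2% with median scaling. Without the factors 7 of 8 were called lower, Cct7 being at -0.13 (adjusted p = 0.434 in limma). With median scaling 5 members were called lower and Cct7 higher (log2 fold change 0.53, adjusted p = 0.00785 in limma).

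**Figure D3:**
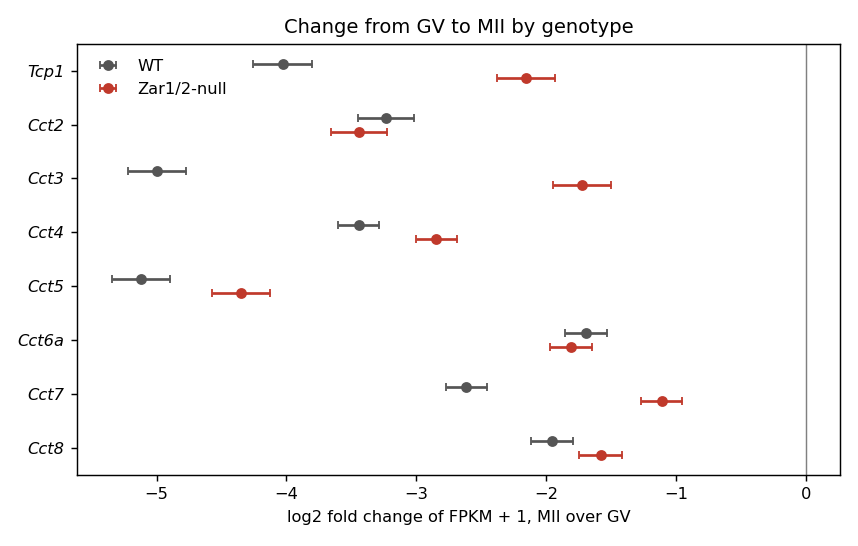
Log2 fold change of MII over GV on the log2(FPKM + 1) scale (horizontal axis) for each subunit (vertical axis) in WT (grey) and Zar1/2-null (red) oocytes, with bars of 1 standard error from limma. All points lie left of 0, and the distance between genotypes is largest for Cct3 (-5.00 against -1.73), Tcp1 (-4.03 against -2.16) and Cct7 (-2.61 against -1.11).

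The interaction of genotype and maturation was called for 3 of 8 members, in each case with a smaller fall in Zar1/2-null oocytes, where 33.9% of all genes were called in that direction. The log2 differences were 3.27 ± 0.32 for Cct3 (adjusted p = 1.62e-05 in limma), 1.87 ± 0.32 for Tcp1 (0.00119) and 1.50 ± 0.22 for Cct7 (0.000439). No member was called with a larger fall in Zar1/2-null oocytes by limma (0 of 8, also at an unadjusted p under 0.05, beside 0.643% of all genes). Cct5 (0.77, adjusted p = 0.0806 in limma) and Cct4 (0.60, 0.0606) missed the threshold. With replicate 2 of the Zar1/2-null GV group left out, their differences were 1.01 and 0.78. That of Cct5 was 1.02 without Zar1/2-null MII replicate 2. The difference for Cct2 was -0.20 (adjusted p = 0.617 in limma), but Cct2 was called with a larger fall in Zar1/2-null oocytes without the ERCC factors (-0.93, 0.0226) and with median scaling (-1.20, 0.00421). The difference was -0.12 for Cct6a (0.716) and 0.38 for Cct8 (0.224). The median difference was 0.68 over the members and 0.48 over all genes. Of all genes called, 98.1% had the smaller fall in Zar1/2-null oocytes with the deposited scaling, 70.1% without the ERCC factors and 48.1% with median scaling, and Cct3, Tcp1 and Cct7 passed under all of these and without each library in turn. Cct4 also depended on such choices, with a difference of -1.12 (adjusted p = 0.0215 in limma) after median scaling. The difference was -0.63 (0.125) without the ERCC factors and -0.32 (0.466) with a pseudocount of 0.1 FPKM. With a minimum mean of 5 FPKM it was 0.60 (0.0418). As a ratio of group means, Cct4 fell 30.1-fold in Zar1/2-null and 19.6-fold in WT oocytes, so the sign of its difference turned on the added 1 FPKM.

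The makeup of the set changed with stage and genotype. Summed over the 8 genes, the level was 1259 ± 47.5 FPKM in WT growing oocytes, 844 ± 146 FPKM at GV and 68.0 ± 5.41 FPKM at MII (mean ± SD, n = 2). In Zar1/2-null oocytes the sums were 1167 ± 117, 661 ± 124 and 111 ± 19.7 FPKM. With the deposited scaling the sum thus fell 12.4-fold from GV to MII in WT and 5.97-fold in Zar1/2-null oocytes. These sums and folds carry the ERCC factors, which differed between genotypes. The WT factors were 0.836 and 0.697 at GV and 0.225 and 0.228 at MII. Those of the Zar1/2-null libraries were 0.533 and 0.583 at GV and 0.283 and 0.252 at MII. The part of the factors in the genotype difference of the sums was not tested. Cct8 made up 17.5% of the sum at GV and 54.5 ± 3.53% at MII in WT, but 34.2 ± 4.65% at MII in Zar1/2-null oocytes. Cct3 made up 19.3% at GV and 6.03% at MII in WT, and 29.7 ± 4.12% at MII in Zar1/2-null oocytes. Cct5 went from 34.9% at GV to 10.9% at MII in WT and was at 10.5% in Zar1/2-null MII oocytes. Cct6a made up 0.825% of the sum in WT growing and 2.98% in Zar1/2-null growing oocytes. The shares within a library do not depend on its ERCC factor.

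The spread between the subunits, as the coefficient of variation of their levels within a library, averaged 82.6% (growing), 91.3% (GV) and 142% (MII) in WT and 67.7%, 102% and 103% in Zar1/2-null oocytes. The order of levels at WT MII was Cct8, Cct2, Cct5, Cct3, Tcp1, Cct7, Cct4 and Cct6a, with Cct3, Tcp1 and Cct7 overlapping. At Zar1/2-null MII Cct8 and Cct3 led and overlapped, followed by Tcp1 and Cct5, then Cct7 and Cct2, then Cct4 and Cct6a.

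**Figure D4:**
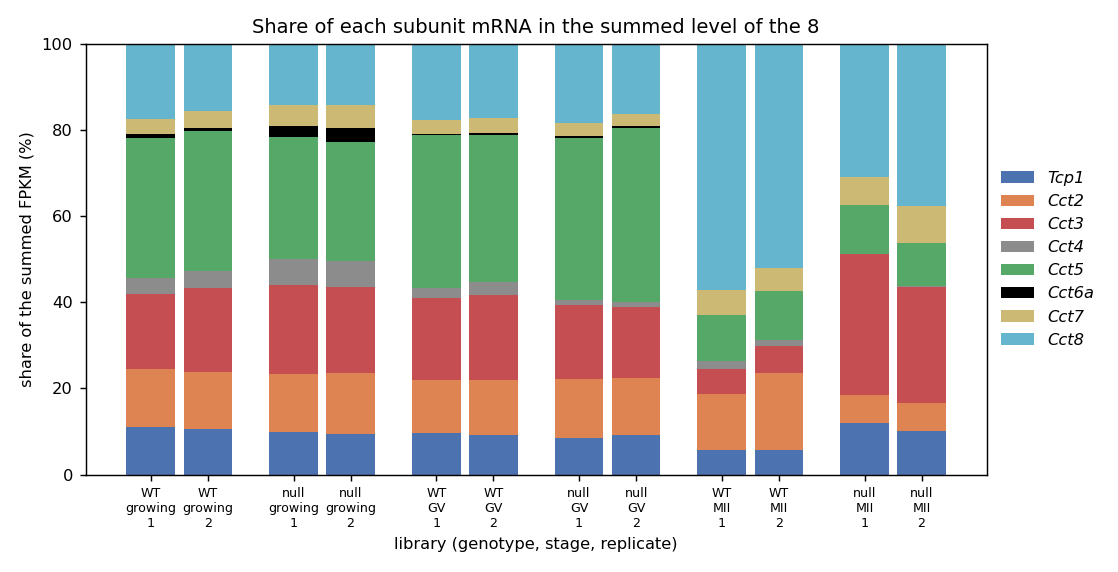
Share of each subunit mRNA in the summed FPKM of the 8 CCT genes (vertical axis, percent) in each of the 12 libraries (horizontal axis). The share of Cct8 grows to 54.5% on average in WT MII libraries, and Cct3 takes 29.7% in Zar1/2-null MII libraries.

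As a description of likeness, Pearson correlations were taken on the log2(FPKM + 1) scale over the 12 libraries, which share stage and scaling factors, so any pair of genes that fell at MII correlates. Each member was set against the mean of the other 7, giving 0.981 for Cct8, 0.979 for Cct7, 0.979 for Tcp1, 0.970 for Cct2, 0.964 for Cct5, 0.953 for Cct4, 0.928 for Cct3 and 0.876 for Cct6a. Cct3 and Cct6a, the genes with the farthest genotype differences at MII and in growing oocytes, were the least like the rest. Among 4319 genes that averaged 10 FPKM or more, those most like the mean of the 8 members were Ell3 (0.999), Syt16 (0.998), Prmt7 (0.998), Dscc1 (0.997) and Gpr19 (0.997).

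The partners of the chaperonin were examined from lists of names. The alternative settings were compared for the CCT members only. How far the calls of partner genes depend on scaling, pseudocount or single libraries was not tested. Prefoldin is the jawed holder of unfolded actin and tubulin, and 5 of its 6 subunits were tested. At MII 3 were higher and 1 lower in Zar1/2-null oocytes, beside 21.5% and 10.3% of all genes and 6 and 1 of the 8 oocyte markers. Pfdn5 was at 49.7 and 49.3 FPKM in WT and at 274 and 228 FPKM in Zar1/2-null oocytes (log2 fold change 2.31, adjusted p = 3.75e-07 in limma), Pfdn2 averaged 36.1 and 64.2 FPKM (0.82, 0.00314) and Pfdn1 11.4 and 18.3 FPKM (0.61, 0.0207). Pfdn4 fell, from 557 and 441 FPKM in WT to 353 and 281 FPKM (-0.65, adjusted p = 0.0323 in limma). Like the CCT subunits, the subunits of this complex differed in direction at MII. No prefoldin gene was called by limma in growing oocytes (0 of 5, or 1, Vbp1, at an unadjusted p under 0.05), where 10.6% of all genes were higher and 24.4% lower. At GV 1 of 5, Vbp1, was lower (on average 109 FPKM against 178 FPKM in WT, -0.67, adjusted p = 0.0413 in limma), where 40.6% of all genes were.

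Of the phosducin-like and thioredoxin-like cofactors, which bind CCT and tune its ATP use, 3 of 4 were tested. Pdcl3 was higher at MII (62.0 and 46.9 FPKM against 17.3 and 14.3 FPKM in WT, log2 fold change 1.71, adjusted p = 8.36e-05 in limma). Pdcl was lower in Zar1/2-null oocytes at every stage, on average 8.92 against 14.9 FPKM in growing (-0.68, adjusted p = 0.00629 in limma), 1.53 against 7.95 FPKM in GV (-1.82, 1.8e-05) and 0.548 against 2.71 FPKM in MII oocytes (-1.26, 7.62e-05). The third, Txndc9, was called by limma at no stage (at an unadjusted p under 0.05 it was lower in growing oocytes).

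The tubulin folding cofactors, which assemble the tubulin dimer after release from CCT, were 5 of 5 tested. At MII 4 of them were higher in Zar1/2-null oocytes and 0 lower (also at an unadjusted p under 0.05 in limma). This stood beside 21.5% and 10.3% of all genes and 6 and 1 of the 8 oocyte markers. Tbcb was at 1.40 and 1.91 FPKM in WT and at 45.6 and 37.2 FPKM in Zar1/2-null oocytes, a difference larger than that of any CCT subunit (log2 fold change 4.0, adjusted p = 1.09e-08 in limma). Tbca was at 68.4 and 49.7 FPKM in WT and 299 and 221 FPKM in Zar1/2-null oocytes (2.12, adjusted p = 2.23e-05 in limma). Tbcc (0.566 and 1.70 FPKM on average) and Tbcd (0.224 and 0.934 FPKM) also rose (adjusted p = 0.00787 and 0.00219 in limma). Tbce was the 1 of 5 called lower at GV (on average 6.32 FPKM against 9.73 FPKM in WT, -0.54, adjusted p = 0.0343 in limma), where 40.6% of all genes were. In growing oocytes 0 of the 5 were called by limma (1, Tbce, at an unadjusted p under 0.05), where 10.6% of all genes were higher and 24.4% lower.

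Of the chaperonin-related genes, 5 of 7 were tested. Hspe1, the mitochondrial co-chaperonin, was at 53.4 and 36.9 FPKM in WT and at 210.0 and 168 FPKM in Zar1/2-null MII oocytes (log2 fold change 2.06, adjusted p = 1.09e-05 in limma). It was the 1 of 5 called higher there, where 21.5% of all genes were. The CCT-related proteins of the Bardet-Biedl syndrome complex moved at the earlier stages and at low levels. Bbs10 was lower in growing (on average 0.438 FPKM against 1.78 FPKM in WT, adjusted p = 0.00506 in limma) and GV oocytes (0.449 against 2.04 FPKM, 0.00198), Mkks was lower in GV oocytes (17.1 against 26.7 FPKM, 0.0146), and Bbs12 was higher in growing oocytes (2.52 against 1.25 FPKM, 0.0347).

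The folding clients of CCT, which here are actins, tubulins, Cdc20 and Fzr1 (encoding CDH1), were listed by 15 symbols. Of these 14 were found and tested, and the symbol Tubb2c was not found. At MII 11 were higher in Zar1/2-null oocytes and 0 lower (also at an unadjusted p under 0.05 in limma), where 21.5% and 10.3% of all genes were. Of the 8 oocyte markers 6 were higher and 1 lower. The median log2 fold change was 1.20 over the clients, 1.35 over those markers and 0.060 over all genes. Tubb2a was at 4.70 and 4.01 FPKM in WT and at 80.8 and 77.6 FPKM in Zar1/2-null oocytes (log2 fold change 3.91, adjusted p = 1.63e-07 in limma). Tuba1c averaged 3.20 and 29.2 FPKM (2.84, adjusted p = 2.17e-07 in limma), Fzr1 0.930 and 9.10 FPKM (2.39, 3.25e-06) and Actg1 4.42 and 19.7 FPKM (1.93). At the earlier stages few were called. Fzr1 was the 1 of 14 called in growing oocytes, as higher (on average 64.4 FPKM against 35.8 FPKM in WT, 0.82, adjusted p = 0.00897 in limma), where 10.6% of all genes were higher and 24.4% lower. At GV 0 of the 14 were called by limma (2, Actg1 and Tuba4a, at an unadjusted p under 0.05), where 2.83% of all genes were higher and 40.6% lower. Actin and tubulin genes have many near-identical copies, so their levels from uniquely mapped reads are uncertain.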

How the data were processed

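Pools of oocytes of 2 genotypes at 3 stages were sequenced by Smart-seq2, which copies full-length polyadenylated RNA into cDNA. Reads were shortened by the authors to 50 bp and aligned to mm9 with TopHat2 2.1.1. Those that mapped uniquely were assigned by Cufflinks 2.2.1 to gene models from UCSC, which gave FPKM. The deposited FPKM carry an ERCC factor set by the authors, the share of ERCC reads in the WT growing library of the same replicate number over that in the library itself. The factors were recovered from the deposited digits. On average 33.5% of the genes in a library were listed at 0, which may also be a failed estimate. No counts per gene are given, so no count-based test was run.

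Samples were grouped by genotype and stage from the labels. A gene was tested if any library reached 1 FPKM (11502 genes, all 8 members included). The model of limma 3.58.1 (R 4.3.3) took log2(FPKM + 1) of the 12 libraries, a term for each of the 6 groups and an eBayes intensity trend, with Benjamini-Hochberg adjustment. Fold changes on this scale understate the change of low genes. The 3-fold rule used group means floored at 1 FPKM. The fit was tested on simulated data.

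Positions and 3′ UTRs came from an mm9 annotation (the transcript with the longest coding sequence), promoters from RefSeq (GRCm38.p6). Copies were searched with BLAST 2.17.0. Genes named are the 8 members, Zar1 and Zar1l, the called members of the partner lists (at most 4 per list and comparison, by size of change) and the 5 genes most correlated with the members. The members and the lists (prefoldin, phosducin-like and thioredoxin-like cofactors, tubulin folding cofactors, chaperonin-related genes, folding clients, and markers of oocytes, granulosa and cumulus cells and immune cells) were chosen with earlier results of these data known. Alternatives were no ERCC factors, median scaling, a pseudocount or floor of 0.1 FPKM, a minimum mean of 5 FPKM, no filter, a replicate block, fits of only the groups compared, eBayes without a trend, and each library left out. Among the marker lists, 4 of 12 granulosa and cumulus genes and 0 of 4 immune genes reached the filter.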

Additional observations from a re-analysis of the deposited data

Results flagged for a closer look

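For 6 results the change between stages differed between genotypes by the interaction test of limma (Benjamini-Hochberg over all 11502 genes, n = 2 libraries per group). During growth the log2 change from growing to GV was more negative in Zar1/2-null than in WT oocytes for Cct4 (difference -1.86, adjusted p = 0.00105), for Cct6a (-1.53, 0.00306) and for Cct7 (-0.93, 0.0225). The call of Cct6a was lost with a pseudocount of 0.1 FPKM (-1.57, limma adjusted p = 0.0610) and with median scaling (0.112), and that of Cct7 with median scaling (0.196) and in a fit of only the groups compared (0.0677). During maturation the log2 change from GV to MII was less negative in Zar1/2-null oocytes for Cct3 (difference 3.27, adjusted p = 1.62e-05), for Tcp1 (1.87, 0.00119) and for Cct7 (1.50, 0.000439). Cct7 therefore appears in both, with a steeper fall during growth and a shallower one during maturation, and these contrasts share the GV libraries. In the growth contrast the deposited value of Cct6a started from 34.4 and 34.8 FPKM in Zar1/2-null and from 11.2 and 9.51 FPKM in WT growing oocytes and ended at overlapping levels.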

How the results depend on the processing

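Over the 8 members and 9 comparisons (72 values), 1440 alternative values were computed, of which 1356 kept their side of the threshold (uncalled values that changed sign included), 61 lost the call, 16 gained it and 7 changed sign while called on either side. The reversed log2 values all came from the scaling. With median scaling they were 0.013 for Cct7 between genotypes at GV, 0.24 for Cct8 from growing to GV in Zar1/2-null oocytes, 0.72 for Cct8 from GV to MII in WT, 0.53 for Cct7 and 0.14 for Cct8 from GV to MII in Zar1/2-null oocytes, and -1.12 for the maturation interaction of Cct4, and without the ERCC factors 0.030 for Cct8 from growing to GV in Zar1/2-null oocytes.

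Without the ERCC factors, the members called numbered 1 lower at GV (Cct4), 2 lower at MII (Cct2 and Cct4), 2 lower in WT growth, 4 lower in Zar1/2-null growth, 7 lower in maturation of each genotype and 1 lower in the maturation interaction (Cct2), and the 3-fold rule at MII gave 1 higher (Cct3) and 1 lower (Cct4). With median scaling they numbered 1 lower at GV, 2 lower at MII, 1 lower in WT growth, 3 lower in Zar1/2-null growth, 1 higher (Cct8) and 6 lower in WT maturation, 1 higher (Cct7) and 5 lower in Zar1/2-null maturation, 1 lower in the growth interaction and 2 lower in the maturation interaction, and the 3-fold rule gave 1 higher and 1 lower at MII. A pseudocount of 0.1 FPKM left 1 member higher in growing oocytes (Cct6a), 4 lower in WT growth and 2 lower in the growth interaction, no filter left 4 lower in WT growth, a floor of 0.1 FPKM put 1 member (Cct4) past 3-fold as lower at MII, and the fit of the GV libraries alone left 1 lower. The cause was not tested.

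With each library left out in turn, the members called ranged from 1 to 2 higher in growing oocytes, 1 to 3 lower at GV, 3 to 4 higher and 1 to 2 lower at MII, 2 to 6 lower in WT growth, 6 to 7 lower in Zar1/2-null growth, 2 to 3 lower in the growth interaction and 3 to 5 higher in the maturation interaction, and 8 of 8 fell at maturation in both genotypes. By the 3-fold rule 0 to 1 were lower at GV and 1 to 2 higher at MII. The coefficient of variation between subunits ranged from 82.5% to 82.7% in WT growing, 66.0% to 69.5% in Zar1/2-null growing, 90.0% to 92.6% in WT GV, 98.9% to 104% in Zar1/2-null GV, 136% to 148% in WT MII and 102% to 105% in Zar1/2-null MII oocytes. A leave-one-out fit leaves a group with 1 library, which is assumed to vary like the other groups.

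With a replicate block (the replicate number as a term) the members called stayed at 2 higher in growing oocytes, 2 lower at GV, 3 higher and 1 lower at MII, 6 and 7 lower in growth and 8 and 8 lower in maturation of WT and Zar1/2-null oocytes, 3 lower in the growth and 3 higher in the maturation interaction, and no call of a member changed. The numbers are not a pairing by design, and the deviations of same-numbered libraries from their group means correlated between -0.117 and 0.163 over 15 pairs of groups, so that not every library was most like those of its own number. The part of poly(A) tail length in the changes at maturation was not tested. Other limits are the 2 libraries per group, the lack of counts per gene and the dependence of stage changes on the ERCC factors. Without such counts, values near 0 such as those of Cct6a and Cct4 at MII have no error of counting.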
